A study of Mus musculus with 2 samples.

Results

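The clustered replication-dependent histone genes were taken as all protein-coding genes of the GENCODE M21 annotation of mm10 whose symbol starts with Hist1h, Hist2h, Hist3h or Hist4h. They numbered 67 of 20807 protein-coding genes on the autosomes, with 6 genes for the linker histone H1, 18 for H2A, 18 for H2B, 12 for H3 and 13 for H4. The rule used symbols alone, and no measured value. Open chromatin was profiled by ATAC-seq, in which Tn5 transposase inserts sequencing adaptors into accessible DNA, in the proximal and in the distal cartilaginous end of the E15.5 mouse femur. The samples of both groups were chondrocytes of FVB mice (strain label FVBNJ), with the ends of each litter pooled from 8 animals on average and 2 replicates of 50000 cells for each end. The dissected ends hold all zones of the growth plate and the perichondrium, so a peak cannot be placed in a zone. Each end was analysed as 1 list of peaks reproducible between its replicates, 28257 proximal and 27958 distal, without a height or score. There is therefore no replicate error and no test below, and a gene without a peak is a gene without a reproducible call.

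Replication-dependent histone genes supply the core and linker histones that package newly made DNA, and they are transcribed in S phase at a nuclear structure called the histone locus body, where the cofactor NPAT gathers. Their transcripts are mostly without introns and end in a stem-loop that the stem-loop binding protein SLBP holds, in place of a poly(A) tail. A few members are instead the germ line forms of the family, among them Hist1h1t, Hist1h2ba and Hist1h2aa, which are known from the testis. Cartilage growth depends on dividing chondrocytes, and the chondrocyte markers Sox9, Col2a1, Acan, Matn3 and Col9a1 all had a peak over a start site in both ends.

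The genes lay in 5 groups on 4 chromosomes. Hist2 covered 50.3 kb at chr3:96219865-96270132 with 10 genes, and Hist3 covered 7.91 kb at chr11:58948920-58956830 with 2 genes. Hist4h4 stood alone on the minus strand at chr6:136801553-136804415. The large Hist1 cluster on chromosome 13 fell into a part A of 23 genes over 328 kb (chr13:21715763-22043676) and a part B of 31 genes over 404 kb (chr13:23531050-23934851), since a gap of more than 500 kb separated them. These parts are called Hist1 A and Hist1 B below.

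The promoter sequences that the following comparisons turn on are shown here, 5′ to 3′ on the assembly GRCm38.p6 (mm10), with the position and strand of each. The sequences of the 2 H2A and H2B pairs are the whole stretch between the start sites of 2 genes read away from each other. The others are the 200 bases before the RefSeq start of an H3 gene, of H4 genes and of H1 genes. The same stretch is shown for Hist2h2ab, the only member whose start a peak covered in 1 end alone. It is also shown for 3 members without a peak (Hist1h1t, Hist1h2ba and Hist3h2ba). Capitals mark 5 words on either strand, which are the octamer ATTTGCAT, the NF-Y word CCAAT, the TATA box word TATAAA, the H4 site word GGTCCG and the H1 box word AACACA.
Hist1h2bl/Hist1h2ai, chr13:21716144-21716421, plus strand: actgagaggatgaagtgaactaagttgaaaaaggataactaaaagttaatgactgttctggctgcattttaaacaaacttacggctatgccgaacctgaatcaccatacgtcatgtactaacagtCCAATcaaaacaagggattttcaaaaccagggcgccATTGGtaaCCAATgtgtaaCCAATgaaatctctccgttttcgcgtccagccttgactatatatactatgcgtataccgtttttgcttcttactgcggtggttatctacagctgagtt
Hist1h2ae/Hist1h2bg, chr13:23571221-23571395, plus strand: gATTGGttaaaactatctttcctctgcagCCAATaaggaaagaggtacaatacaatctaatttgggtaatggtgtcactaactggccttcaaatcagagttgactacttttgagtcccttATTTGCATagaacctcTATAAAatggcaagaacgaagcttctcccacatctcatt
Hist1h3c, chr13:23745522-23745721, minus strand: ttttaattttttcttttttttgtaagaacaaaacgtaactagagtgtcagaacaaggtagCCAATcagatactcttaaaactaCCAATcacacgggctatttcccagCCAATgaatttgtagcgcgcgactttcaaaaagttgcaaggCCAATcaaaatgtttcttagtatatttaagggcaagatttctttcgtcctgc
Hist1h4j, chr13:21734834-21735033, plus strand: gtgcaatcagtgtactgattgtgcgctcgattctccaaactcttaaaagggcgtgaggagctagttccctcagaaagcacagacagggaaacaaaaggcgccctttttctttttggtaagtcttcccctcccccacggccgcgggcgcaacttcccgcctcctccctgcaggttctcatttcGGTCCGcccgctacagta
Hist1h4i, chr13:22041363-22041562, minus strand: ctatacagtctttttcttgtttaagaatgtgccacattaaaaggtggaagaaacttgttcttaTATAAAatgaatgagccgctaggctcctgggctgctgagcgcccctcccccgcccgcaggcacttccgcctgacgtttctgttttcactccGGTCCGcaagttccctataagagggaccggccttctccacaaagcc
Hist1h1c, chr13:23738607-23738806, plus strand: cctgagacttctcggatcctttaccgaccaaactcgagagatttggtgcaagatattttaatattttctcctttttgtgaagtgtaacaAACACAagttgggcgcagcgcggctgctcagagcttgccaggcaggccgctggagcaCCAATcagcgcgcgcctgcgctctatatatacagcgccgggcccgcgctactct
Hist1h1d, chr13:23554832-23555031, plus strand: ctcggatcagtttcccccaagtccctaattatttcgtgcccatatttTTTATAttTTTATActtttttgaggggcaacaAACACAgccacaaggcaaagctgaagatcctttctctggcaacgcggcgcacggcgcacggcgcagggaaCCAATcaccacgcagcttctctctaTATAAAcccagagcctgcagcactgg
Hist2h2ab, chr3:96219685-96219884, plus strand: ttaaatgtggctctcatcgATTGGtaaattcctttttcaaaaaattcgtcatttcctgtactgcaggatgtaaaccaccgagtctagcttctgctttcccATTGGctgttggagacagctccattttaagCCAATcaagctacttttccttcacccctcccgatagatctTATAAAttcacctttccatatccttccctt
Hist1h1t, chr13:23695611-23695810, plus strand: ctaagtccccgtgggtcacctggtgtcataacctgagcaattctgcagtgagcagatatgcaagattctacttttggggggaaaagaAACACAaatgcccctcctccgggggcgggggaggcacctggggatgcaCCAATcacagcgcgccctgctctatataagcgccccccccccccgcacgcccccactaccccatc
Hist1h2ba, chr13:23934157-23934356, minus strand: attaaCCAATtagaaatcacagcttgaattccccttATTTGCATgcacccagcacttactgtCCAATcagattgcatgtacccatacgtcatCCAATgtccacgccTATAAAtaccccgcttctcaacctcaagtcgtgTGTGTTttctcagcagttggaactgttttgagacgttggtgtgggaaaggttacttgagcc
Hist3h2ba, chr11:58948711-58948910, plus strand: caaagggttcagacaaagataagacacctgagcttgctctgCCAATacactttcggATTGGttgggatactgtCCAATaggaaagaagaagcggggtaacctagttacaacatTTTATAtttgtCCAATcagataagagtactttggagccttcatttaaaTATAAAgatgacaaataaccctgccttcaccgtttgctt

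Nearly all of the histone genes had a peak near a start site in both femur ends. A peak lay within 1 kb of an annotated start site in 62 of 67 genes in the proximal femur and in 62 of 67 in the distal femur, and these were the same 62 genes (92.5%). Over all protein-coding autosomal genes the share was 56.4% in the proximal femur, 57.7% in the distal femur and 55.0% in both. No histone gene had a peak in 1 end alone by this measure, where 1.37% of all genes had a proximal peak only and 2.77% a distal peak only. By histone type, the count was 13 of 13 for H4, 12 of 12 for H3, 17 of 18 for H2A, 16 of 18 for H2B and 4 of 6 for H1. By cluster, it was 10 of 10 in Hist2, 23 of 23 in Hist1 A, 27 of 31 in Hist1 B, 1 of 2 in Hist3, and Hist4h4 had a peak. The 5 genes without a peak were thus 4 genes of Hist1 B and 1 of Hist3.

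**Figure D1:**
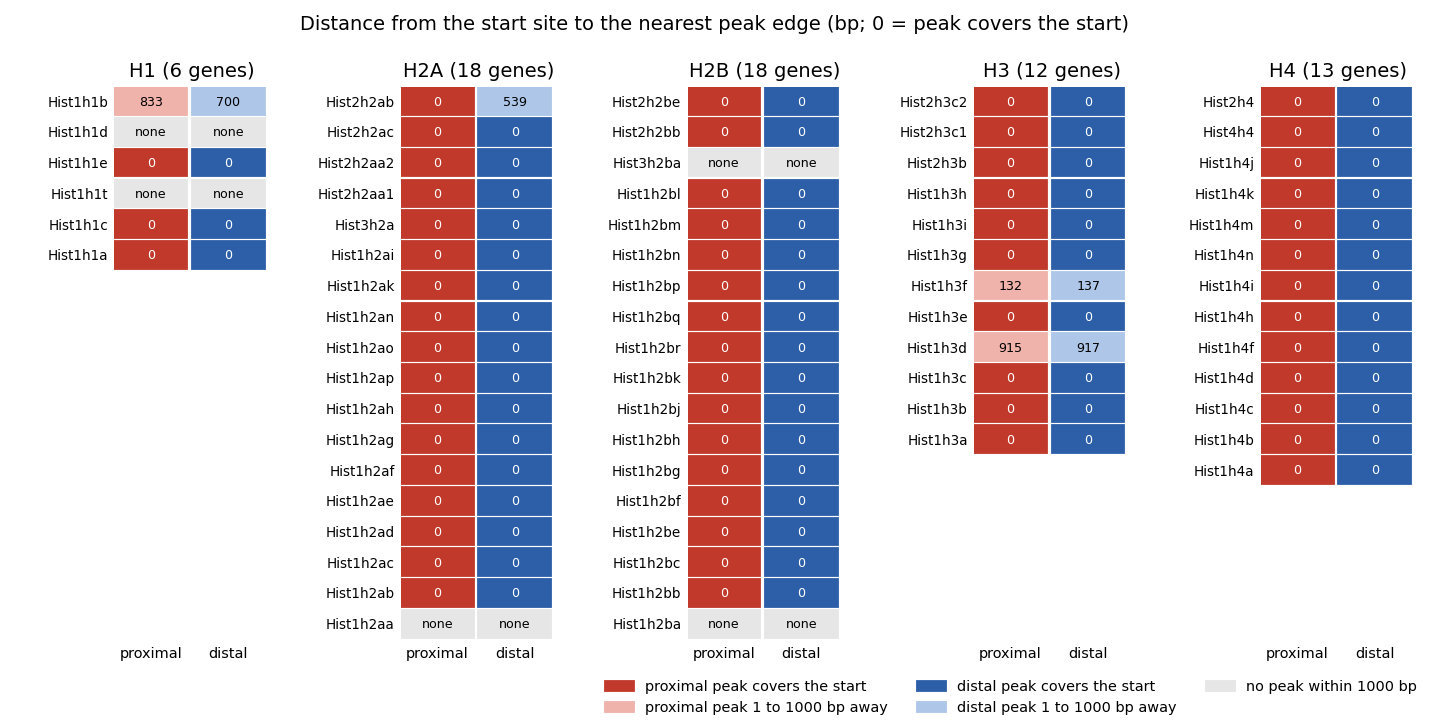
Distance in bp from the start site of each of the 67 histone genes to the nearest peak edge in the proximal (red) and distal (blue) femur, by histone type, with 0 where the peak covers the start and grey where no peak lies within 1000 bp. The grey cells are the same 5 genes in both ends, and the pale distal cell of Hist2h2ab (539 bp) is the only place where 1 end covers a start that the other does not.

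The peaks usually covered the start site itself. A peak overlapped an annotated start in 59 genes in the proximal femur, 58 in the distal femur and 58 in both (86.6%), against 53.9%, 55.0% and 52.5% of all protein-coding autosomal genes. Hist2h2ab, an H2A gene, was covered in the proximal femur alone, a state found in 1.40% of all genes, and no histone gene was covered in the distal femur alone, where 2.55% of all genes were. All 13 H4 genes and 16 of the 18 H2B genes were covered in both ends, with 16 H2A, 10 H3 and 3 H1 genes. When the first base of the coding sequence was asked for instead, 61 genes were covered in the proximal femur and 60 in both ends (89.6%), and among 20553 protein-coding autosomal genes with a coding start the share was 33.2% in the proximal femur, 33.7% in the distal femur and 31.7% in both. Histone coding sequences begin close to the start of a transcript with few or no introns, and so this last comparison sets unlike genes side by side.

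The linker histone genes differed in peak state, from a covered start to no peak within 1 kb. H1 binds the DNA between nucleosomes, and 5 of the 6 H1 genes of the clusters lay in Hist1 B. Hist1h1e lay under a peak of 1809 bp in the proximal and 1812 bp in the distal femur, which reached 1629 and 1634 bp into the gene. The peak of Hist1h1c was 1537 bp wide in the proximal femur and 1435 bp in the distal femur. That of Hist1h1a was far narrower, at 503 and 523 bp. The Hist1h1e and Hist1h1c peaks thus spread over the transcribed side of the start, whereas upstream they ended 179 and 167 bp from the start in the proximal femur.

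Hist1h1b, the only linker gene of Hist1 A, had a peak near its other end. The proximal peak at chr13:21779051-21779792 lay 833 bp from the start site and past the 3′ end of the gene, which runs from 21779883 to 21780625 on the minus strand. The distal peak at chr13:21779179-21779925 lay 700 bp from the start and reached into that 3′ end. The start of Hist1h1b was therefore without a peak in either end, although its promoter holds 2 AACACA words, 3 CCAAT words and a TATAAA word.

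The call for Hist1h1d depended on the annotation. The annotated start at chr13:23553262 had no peak within 1 kb, and the nearest peaks were those of Hist1h4f, at 1332 bp in the proximal and 1317 bp in the distal femur. Its coding start lies 1828 bp downstream at 23555090 and was covered in both ends, by peaks at chr13:23554885-23555638 and chr13:23554905-23555545, which also cover the RefSeq start printed above. A further peak at chr13:23555971-23556326, 356 bp wide, was called in the proximal femur alone. By its coding start, then, Hist1h1d belonged with the accessible linker genes.

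Hist1h1t, the testis linker histone, had no peak within 1 kb of either start. The nearest peak was 1911 bp away in the proximal and 1690 bp away in the distal femur, and it was the promoter peak of Hist1h4c, an H4 gene on the opposite strand. The testis forms Hist1h2ba and Hist1h2aa, an H2B and an H2A gene that face away from each other with 305 bases between them, stood the farthest of the 67 from any peak. For Hist1h2ba the nearest peak was 56711 bp away in the proximal and 56691 bp away in the distal femur. For Hist1h2aa these distances were 56405 and 56385 bp. The promoter of Hist1h2ba shown above holds the octamer ATTTGCAT and CCAAT words, which are also found in covered genes of the family.

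The remaining gene without a peak was Hist3h2ba, an H2B gene on chromosome 11, whose nearest peak lay 5120 bp away in the proximal and 5243 bp in the distal femur. That peak was the promoter peak of its cluster neighbour Hist3h2a, 1327 bp wide in the proximal and 1176 bp in the distal femur. Hist3h2a has the same annotated start, 58954685, as the ubiquitin ligase gene Trim17, so this peak cannot be assigned to the histone gene alone.

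The genes of H2A and H2B are often arranged as divergent pairs that share a promoter, and 12 such pairs were found among the members with starts less than 1 kb apart. A single peak covered both starts in 11 of the 12 pairs, in the proximal and in the distal femur alike. The exception in both ends was the testis pair Hist1h2ba and Hist1h2aa. Among 721 other divergent pairs of protein-coding genes, 632 (87.7%) lay under 1 peak in the proximal femur and the same number in the distal femur. The sequences between the paired histone starts were 175 to 305 bases long with a median of 258. The other pairs could have starts up to 1 kb apart, and their intervals were not measured. The shares under 1 peak may therefore compare intervals of unlike length.

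The shared peaks of these pairs were alike in size. Their widths ran from 994 to 1357 bp with a median of 1154 bp in the proximal femur, and from 985 to 1407 bp with a median of 1147 bp in the distal femur. The peaks over the other divergent pairs, whose intervals were not matched in length, had medians of 1072 and 1082 bp. From each histone start the peak went on into the gene for a median of 461 bp (341 to 622 bp) in the proximal femur and 464 bp (269 to 669 bp) in the distal femur. Hist1h2ac and Hist1h2bc had the widest of these peaks, 1357 bp in the proximal and 1407 bp in the distal femur. Hist1h2ak and Hist1h2bn shared the next widest in the proximal femur, of 1249 bp, with 1207 bp in the distal femur, and Hist1h2ah and Hist1h2bk followed at 1220 and 1209 bp. Those of Hist1h2ag with Hist1h2bj, Hist1h2an with Hist1h2bp, Hist1h2bq with Hist1h2ao and Hist1h2ap with Hist1h2br were between 1133 and 1197 bp wide over both ends. These pairs thus had peaks of much the same size. Hist1h2bq with Hist1h2ao and Hist1h2ap with Hist1h2br copy each other, so their widths may not be separate observations. The pair with the shortest interval, Hist1h2ae and Hist1h2bg, had peaks of 1137 and 1091 bp, and Hist1h2bf and Hist1h2ad had the narrowest proximal one, of 994 bp, with 997 bp in the distal femur. For Hist1h2bl and Hist1h2ai, whose whole intervening sequence is shown above, the widths were 1130 and 1161 bp.

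Hist1h2bh and Hist1h3f formed the only divergent pair of other types, an H2B and an H3 gene 659 bases apart. No peak covered both starts. Hist1h2bh had a peak over its own start, 701 bp wide in the proximal and 707 bp in the distal femur. The Hist1h3f peaks began 132 bp downstream of its annotated start in the proximal femur and 137 bp downstream in the distal femur, and they covered its coding start, which lies 433 bp from the annotated start. The pair therefore had separate peaks in both ends.

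Counting every peak that covered a start, 14 of 45 proximal and 14 of 44 distal peaks lay over 2 histone genes, and none over 3. Beside the 11 divergent pairs, they were 2 tandem pairs of an H3 and an H2A gene in Hist2 and the peak shared by Hist1h2be and Hist1h1e. Hist2h3c2 and Hist2h2aa2 shared a peak of 2037 bp in the proximal and 2047 bp in the distal femur. Hist2h2aa1 and Hist2h3c1 shared one of 2076 and 2053 bp. These were the widest histone promoter peaks of each end, and both gene pairs hold near copies of each other. Peaks over 2 starts were not counted for all protein-coding genes. Whether the share is particular to histone genes was therefore not tested.

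Hist1h2be, an H2B gene, owed its place in a shared peak to a distant annotated start. Its annotated starts, the farthest at 23621124, lie inside the Hist1h1e peak, while its coding start at 23585956 is 35122 bp from the nearest of them. That coding start had a peak of its own at chr13:23585505-23586199 in the proximal and chr13:23585506-23586196 in the distal femur. With starts up to 1 kb from a peak counted, 47 peaks of each end belonged to the members. In the proximal femur 23 of them lay near 1 gene, 18 near 2 and 6 near 3, and in the distal femur 24, 18 and 5. These larger counts measure how closely the genes are packed, since a peak over 1 start could lie within 1 kb of the next. They too were not made for all protein-coding genes.

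Peak widths are given here by the number of histone starts covered. A peak has to be wide enough to span both starts to count over 2 genes, so larger widths there follow in part from the grouping. Peaks over the start of 1 histone gene had a median width of 764 bp in the proximal and 706 bp in the distal femur, and those over 2 genes of 1174 and 1179 bp. All peaks within 1 kb of a histone start, called histone promoter peaks here, had medians of 991 and 941 bp. For the peaks near any protein-coding start the medians were 928 and 903 bp. The histone promoter peaks ranged from 432 to 2076 bp in the proximal and from 279 to 2053 bp in the distal femur. The narrowest proximal peak was that of Hist1h3h, an H3 gene.

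Measured along the strand, the peaks over histone starts reached a median of 515 bp upstream and 489 bp downstream in the proximal femur, and 515 and 467 bp in the distal femur. For other protein-coding genes the medians were 400 bp upstream and 532 bp downstream in the proximal femur and 393 and 521 bp in the distal femur. In the plot of peak extent the upstream side includes the partner's start for each H2A and H2B pair under 1 peak. The first 400 bases of the gene, about the length of a core histone coding sequence, lay wholly under the peak in 47 of 59 histone genes (79.7%) in the proximal and 46 of 58 (79.3%) in the distal femur. Among the other covered genes these shares were 72.2% and 69.8%.

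**Figure D2:**
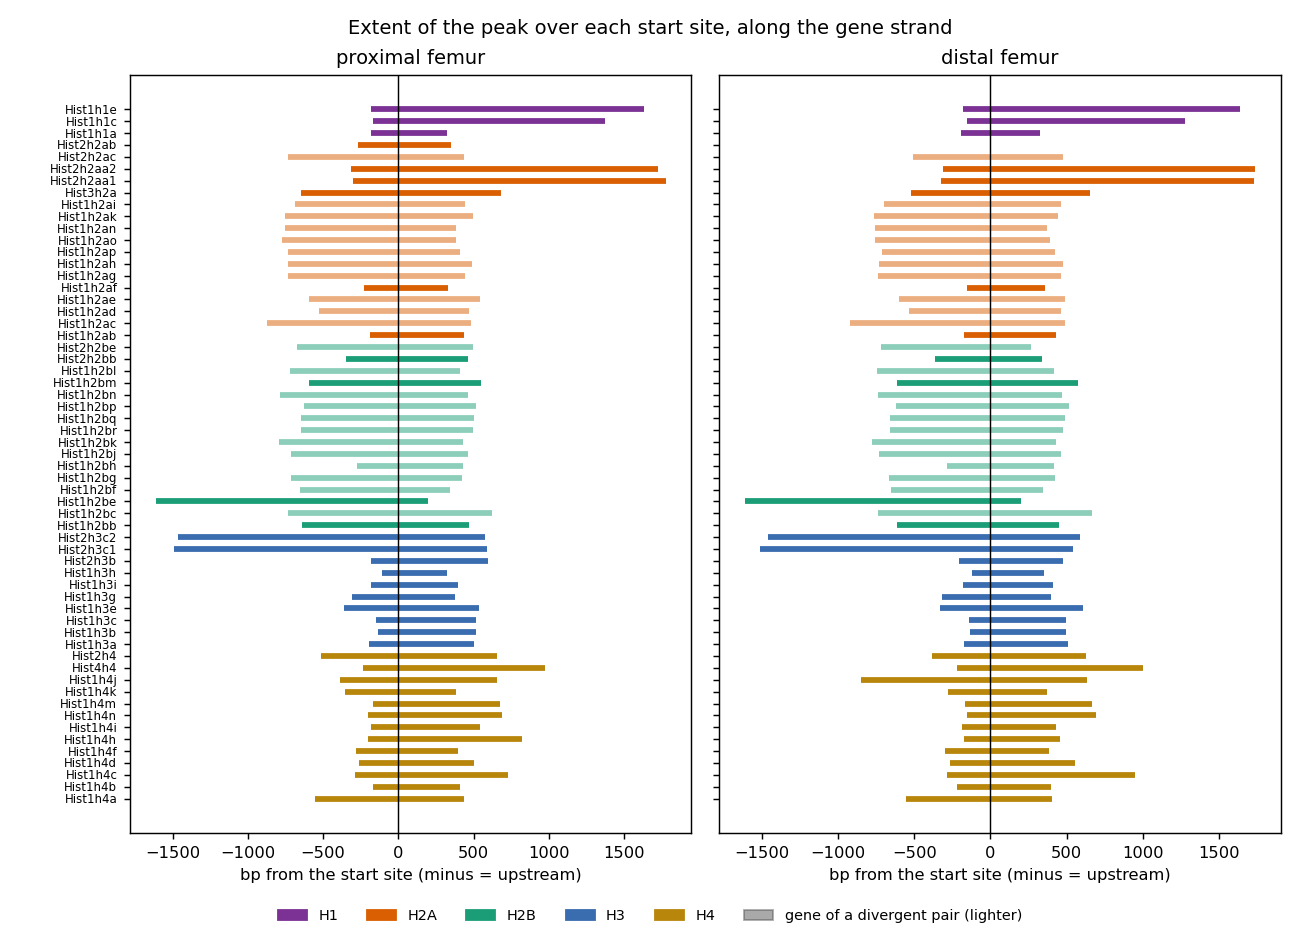
Extent of the peak over each histone start site in bp along the gene strand (minus is upstream), 59 genes in the proximal and 58 in the distal femur, coloured by histone type and paler for genes of a divergent pair. Bars of the 11 covered H2A and H2B pairs extend upstream over the start of the partner gene, that of Hist1h2bh does not reach its partner, and those of Hist1h1e and Hist1h1c extend mostly downstream, to 1629 and 1369 bp in the proximal femur.

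H4 genes, which stand apart from the divergent pairs, were covered without exception, and their peaks differed among themselves. In the proximal femur the downstream reach ran from 381 bp in Hist1h4k to 974 bp in Hist4h4. Hist4h4 had the widest proximal H4 peak, of 1211 bp, with 1220 bp in the distal femur, and Hist2h4 followed with 1171 and 1013 bp. Hist1h4j had a peak of 1042 bp in the proximal and 1482 bp in the distal femur, and Hist1h4c one of 1016 and 1238 bp. Both were thus wider in the distal list. Hist1h4h went the other way, with 1 proximal peak of 1027 bp where the distal list held a peak of 627 bp over the start and another of 279 bp farther along. No peak height was at hand to say whether such differences in width go with a difference in accessibility.

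Of the 12 H3 genes, 10 were covered at the start. Hist1h3c was covered by a peak of 660 bp in the proximal and 637 bp in the distal femur, and Hist1h3e by one of 897 and 941 bp. Hist1h3d was the only H3 gene with neither its start nor its coding start under a peak, and the peak that placed it within 1 kb, at 915 and 917 bp, was the promoter peak of the divergent pair Hist1h2bf and Hist1h2ad. With Hist1h1b, it was thus called accessible at 1 kb by a peak that lay elsewhere.

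The histone promoter peaks were placed almost alike in both ends. Of the 47 proximal peaks, 46 overlapped a distal peak, and all 47 distal peaks overlapped a proximal peak. For overlapping peaks, the stretch held in common was a median of 95.9% of the joint span for the proximal and 95.5% for the distal peaks. Over the peaks near any protein-coding start the median was 90.5% in both lists, and over all peaks it was 88.6% and 88.5%. Peaks called in 1 end alone made up 2.13% of the proximal and 0% of the distal histone promoter peaks. The same shares were 4.11% and 6.96% for all promoter peaks and 16.1% and 15.0% for all peaks.

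The exception was the peak at chr3:96219598-96220212, 615 bp wide, called in the proximal femur alone. It covered the start and the coding start of Hist2h2ab, and it also covered the start of Bola1 at 96219709, a gene of the mitochondrial BolA family on the other strand. In the distal femur the nearest peak to the Hist2h2ab start lay 539 bp away, over the pair Hist2h2ac and Hist2h2be. That pair's peak was 1171 bp wide in the proximal and 985 bp in the distal femur. With 1 list per end, whether the missing distal call is a difference in accessibility was not tested.

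The clusters held more peaks for their length than the autosomes as a whole. With 20 kb on either side, the regions spanned 992758 bp and held 72 proximal and 70 distal peaks, or 7.25 and 7.05 peaks for each 100 kb, against 1.15 and 1.14 over the autosomes. Peaks took up 6.67% of the regions in the proximal and 6.37% in the distal femur, against 0.879% and 0.847% of the autosomes. The regions were drawn around closely packed start sites, so a higher density follows in part from that choice. They held 67 histone genes, where the autosomes held 20807 protein-coding genes over 2462745373 bp. By region, the proximal density was highest in Hist2, with 8.86 peaks for each 100 kb, followed by 8.43 in Hist1 A, 6.31 in Hist1 B, 6.26 in Hist3 and 4.67 around Hist4h4. Most of these peaks, 47 in each end, lay within 1 kb of a histone start, and 45 proximal and 44 distal peaks covered one. In each end 2 more lay at the coding starts of Hist1h1d and Hist1h2be.

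**Figure D3:**
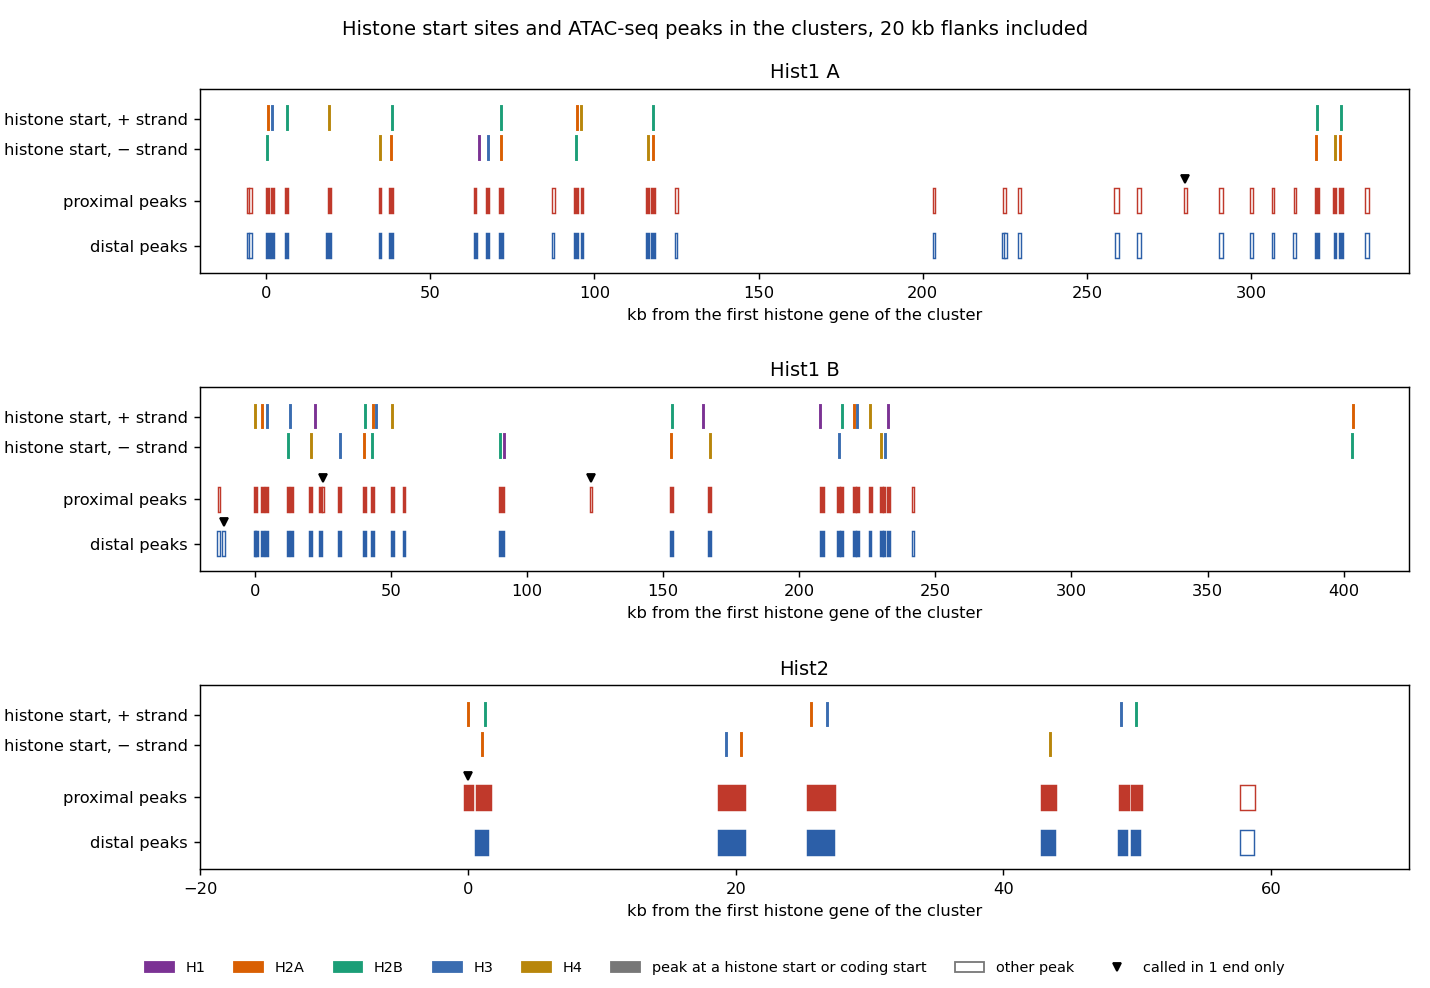
Start sites of histone genes by strand and type (upper ticks) and peaks of the proximal (red) and distal (blue) femur along Hist1 A, Hist1 B and Hist2 with 20 kb flanks, in kb from the first histone gene. Filled boxes are peaks at a histone start or coding start, open boxes other peaks, and triangles mark the peaks called in 1 end alone, of which Hist2h2ab has the one in Hist2. Narrow boxes are drawn at a smallest visible width.

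Of the other cluster peaks, 5 in each end lay at the start of another protein-coding gene, namely H2afj, which encodes an H2A variant, next to Hist4h4, Rnf187 beside Hist3, and Zfp184, Pom121l2 and Prss16 in the gap within Hist1 A. Wbp11 and Scgn, which reach into the flanks of Hist4h4 and Hist1 B, also had a peak within 1 kb of a start in both ends. The other genes inside Hist1 B, which are Hfe, Trim38 and the transporters Slc17a1, Slc17a2, Slc17a3 and Slc17a4, had no peak within 1 kb in either end. Among the protein-coding genes inside Hist1 B, peaks within 1 kb of a start were thus found at histone genes alone. A peak of each end did lie within Trim38, 2680 bp from the nearest start in the proximal and 2697 bp in the distal femur. A further 2 proximal peaks and 1 distal peak lay at noncoding starts alone, and 16 proximal and 15 distal peaks at no start.

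Part of the peaks away from histone genes lay over tRNA genes, which are known to sit beside the Hist1 cluster in mouse. Peaks that overlapped a tRNA gene of the RefSeq annotation numbered 10 in the proximal and 12 in the distal femur, all of them in the Hist1 regions and none at a histone start. Hist1 A held 34 tRNA genes, of which 10 lay in proximal and 10 in distal peaks (29.4% in each), and Hist1 B held 8, of which 2 and 4 did. Over the autosomes, 175 of 386 tRNA genes (45.3%) lay in proximal and 165 (42.7%) in distal peaks. The share in Hist1 A was thus below that of the autosomes.

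Peaks called in 1 end alone numbered 5 of 72 (6.94%) in the proximal and 1 of 70 (1.43%) in the distal regions. Over all peaks of each list the shares were 16.1% and 15.0%. Beside those at Hist2h2ab and behind Hist1h1d, the proximal ones lay at chr11:58959941-58960494 in Hist3, chr13:21995542-21995958 in Hist1 A and chr13:23654323-23654839 in Hist1 B. The distal one, at chr13:23519516-23519822, was 307 bp wide and lay over a tRNA gene in the flank of Hist1 B. Apart from that of Hist2h2ab, none was within 1 kb of a GENCODE histone start. The one behind Hist1h1d did lie within 1 kb of the coding start and the RefSeq start of that gene.

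The promoters were compared by short words known from histone genes. RefSeq promoter windows, from 250 bases before to 50 bases after the start, were found for 62 of the 67 genes and for 20085 protein-coding autosomal genes, and words were searched on both strands. Windows of a divergent pair share much of the same DNA, so the H2A and H2B counts are not independent. Hist2h2be, Hist2h4, Hist1h3f, Hist1h2bc and Hist1h3a were not among the windows. A word in a window is a description of the letters and not a binding site.

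CCAAT, the word read by the NF-Y complex, was in every H1 (6 of 6), H2A (18 of 18), H2B (16 of 16) and H3 window (10 of 10), in 3 of 12 H4 windows (25%) and in 38.1% of all windows. At least 2 copies were in all 18 H2A and all 16 H2B windows, in 8 of 10 H3 windows, in 1 H4 and 1 H1 window, and in 12.8% of all windows. The Hist1h2bl and Hist1h2ai interval shown above holds 4 copies. The Hist1h3c and Hist1h3e promoters likewise hold 4 each in the 200 bases before the start. CCAAT was thus the common word of the core types other than H4.

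The octamer ATTTGCAT, known from H2B promoters and read by the factor Oct1, was in 7 of 18 H2A (38.9%) and 7 of 16 H2B windows (43.8%), in no H1, H3 or H4 window and in 1.67% of all windows. Its place near the H2B start can be seen in the interval between Hist1h2ae and Hist1h2bg, where it stands before a TATAAA word. GGTCCG, the core of the H4 element read by HINFP, was in 11 of 12 H4 windows (91.7%), in 1 H2B window (6.25%), 1 H3 window (10%) and 10.7% of all windows. It lies close before the start in Hist1h4j and Hist1h4i above.

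AACACA, the word of the H1 box, was in 5 of 6 H1 windows (83.3%), 2 of 18 H2A (11.1%), 2 of 16 H2B (12.5%), 1 of 10 H3 (10%) and 4 of 12 H4 windows (33.3%), against 15.1% of all windows. The Hist1h1c, Hist1h1d and Hist1h1t promoters each carry 1 copy upstream of a CCAAT word. TATAAA was in 4 of 6 H1 (66.7%), 11 of 18 H2A (61.1%), 8 of 16 H2B (50%), 4 of 10 H3 (40%) and 8 of 12 H4 windows (66.7%), against 12.7% of all windows. The median GC content of the histone windows was 45.3%, against 57% for all windows, and the ratio of observed to expected CpG was 0.74 against 0.586.

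**Figure D4:**
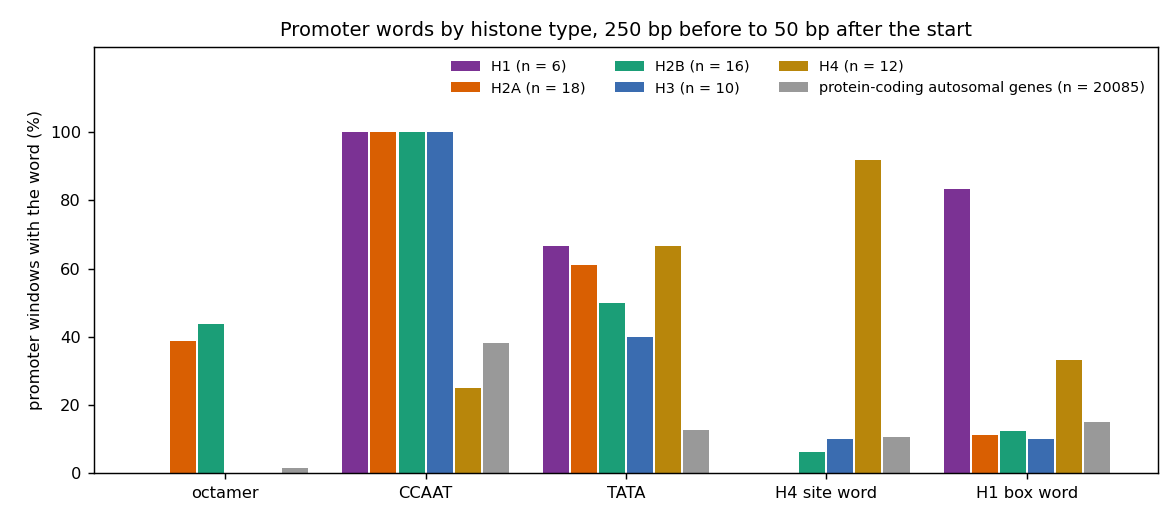
Share of RefSeq promoter windows (250 bp before to 50 bp after the start) that hold each word on either strand, in percent, by histone type, with all 20085 windows of protein-coding autosomal genes in grey. The octamer bars stand for H2A and H2B alone (38.9% and 43.8%), the H4 site word GGTCCG is highest in H4 (91.7%) and the H1 box word AACACA in H1 (83.3%).

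Words found in the genes with a peak were in part also in those without. One of the 5 windows counted as without a peak, that of Hist1h1d, lies at the RefSeq start and so under the peaks at its coding start. All 5 genes without a peak had a CCAAT word, 4 of 5 a TATAAA word, 4 of 5 AACACA and 2 of 5 the octamer. Among the 57 genes with a peak and a window, 48 held CCAAT, 31 TATAAA, 10 AACACA and 12 the octamer. GGTCCG was in 13 of these 57 windows (22.8%) and in 0 of 5 of the others, none of which is an H4 gene. The 5 genes were also alike in the other hallmark of the family, as each has the histone stem-loop after its stop codon. That motif was found within 150 bases of the stop codon in 63 of 67 genes, at a median of 30 bases (21 to 58), and in 1 of 20586 other protein-coding autosomal genes (0.00486%), the variant gene H2afx. It was not found in Hist2h2be, Hist1h2an, Hist1h3g and Hist1h4a, all of which had peaks. The search used a fixed pattern, so a variant stem-loop or one farther than 150 bases from the stop codon would be missed.

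Many members are near copies of each other, which bears on where reads can be placed. The share of 32-base words within 500 bp of the start that occur only once in the genome had a median of 63.6% over the 67 genes, and it was under 50% in 20 genes. It was 0% for Hist1h2bq, Hist1h2ao, Hist1h2ap and Hist1h2br, 2 divergent pairs that copy each other, and Hist1h2bq and Hist1h2br have identical promoter windows. It was 2.89% for Hist1h4n, 3.81% for Hist1h4m and 3.30% for both Hist2h3c1 and Hist2h3c2. All of these genes had a peak over the start in both ends. How reads with several equal placements were treated is not given in the sources used here, so which copy such a peak comes from cannot be told apart.

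The same share was taken for the genes without a peak, and whether read placement bears on their missing calls was not tested. The share was 100% for Hist1h1t and for the annotated start of Hist1h1d, 95.1% for Hist1h2aa, 82.4% for Hist1h2ba and 77.1% for Hist3h2ba, all above the median. It was 97.9% for Hist1h1b and 65.6% for Hist1h3d, the genes whose peak lay elsewhere.

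**Figure D5:**
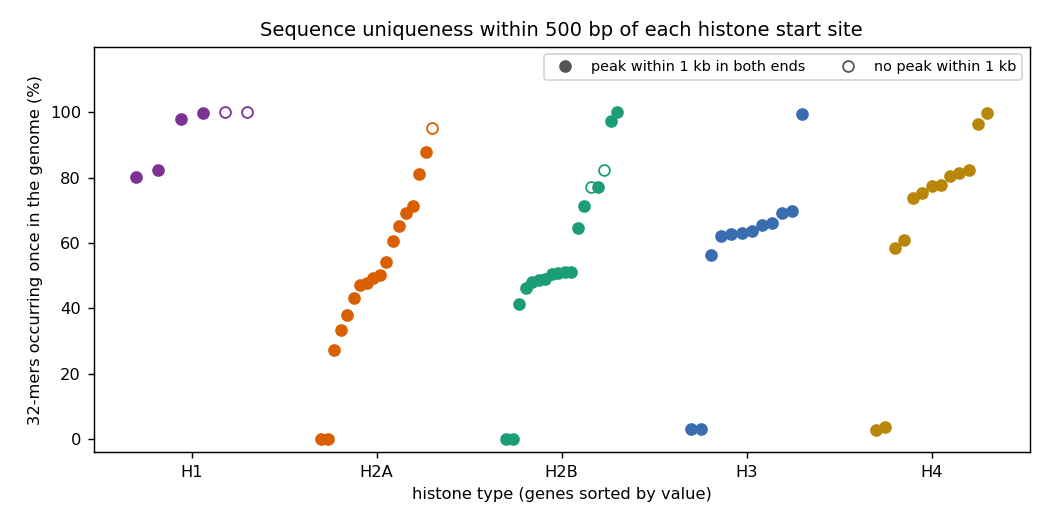
Share in percent of the 32-base words within 500 bp of each of the 67 histone start sites that occur once in the genome, by histone type and sorted by value, filled for genes with a peak within 1 kb in both ends and open for genes without one. The 5 open points lie between 77.1% and 100%, and 8 filled points lie under 4%.

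Other histone genes and the machinery of histone expression were set beside the clusters. The 11 genes of replacement histone variants, which are made outside S phase too, had a peak within 1 kb in 10 genes in the proximal femur, 10 in the distal femur and 9 in both, beside the 55.0% of all protein-coding autosomal genes with a peak in both. H1f0, the replacement linker histone, had a proximal peak alone, of 566 bp, and H2afy2, a macroH2A gene, had a distal peak alone, of 663 bp. Of all protein-coding autosomal genes, 1.37% had a proximal peak only and 2.77% a distal peak only. H3f3a and H3f3b, which encode H3.3, were covered in both ends, with H3f3b under a peak of 1102 bp in the proximal and 1105 bp in the distal femur. The germ cell linker genes H1fnt and Hils1 had no peak, and H1foo had a proximal peak alone, 464 bp from its start.

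All 24 genes of histone gene regulators, RNA processing factors and histone chaperones had a peak over a start in both ends, beside 52.5% of all protein-coding autosomal genes. The peak of Npat, the cofactor named above, was 1272 bp wide in the proximal and 1203 bp in the distal femur. Slbp, which encodes the stem-loop binding protein, had peaks of 1117 and 997 bp, and Hinfp, the factor of H4 promoters, of 821 and 840 bp. Pou2f1, which encodes Oct1, had peaks of 1390 and 1370 bp. These genes showed no difference between the ends by presence of a peak, as held for the clustered genes at 1 kb.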

How the data were processed

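ATAC-seq was carried out on pooled proximal and distal femoral ends, and the authors aligned reads to mm10, removed duplicates, called peaks and kept peaks that passed an IDR threshold of 0.05 over the replicates. The submitters' processing notes name Bowtie2 2.2.8 and MACS2 2.1.1. The deposited lists hold peak positions only, with no score or signal, on 19 chromosomes, and the read depth behind a peak was not analysed here. Starts were read as 0-based and are printed 1-based.

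Peaks were compared with GENCODE M21 genes using Python 3.11.15 and NumPy 2.4.6. A gene had a peak when a peak edge lay within 1 kb of any annotated start site, and peaks of both ends matched when they overlapped by 1 bp. Clusters were split at gaps over 500 kb. Divergent pairs had starts less than 1 kb apart. Repeated words were counted with numba 0.67.0 on the assembly, and scripts were tested on simulated data. Promoter windows and tRNA genes came from RefSeq (GRCm38.p6). Members and gene lists were chosen with earlier results of these data known. By rule, genes were named that had a peak in 1 end or none, formed divergent pairs, had the 3 widest covering peaks of their type, were listed genes without a peak or were neighbours with one. Other genes were chosen after their values were seen, and the rule's clause on shared protein sequences was not used here. Alternatives were distance limits, peak centres, wide peaks, flanks, overlap, window length and coding starts.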

Additional observations from a re-analysis of the deposited data

How the results depend on the processing

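Of 140 values recomputed under alternatives, 124 stayed within 1.5 times of the reported value. No histone gene had a peak in the proximal femur alone within 1 kb, but 1 did (Hist2h2ab) when the peak had to cover the start, lie within 500 bp, have its centre within 1 kb or cover the coding start, and 3 did (Hist1h4k, Hist1h4i and Hist1h4h) when narrower peaks than the median of each list were left out, which also gave 1 gene (Hist1h3g) with a distal peak alone. Peaks shared by at least 2 histone genes fell from 24 proximal and 23 distal to 14 and 14 when the peak had to cover the starts, and to 16 and 15 at 500 bp. With a reciprocal overlap of 50%, 3 in place of 1 distal cluster peaks were called in 1 end alone. The share of all genes with a peak fell to 33.2% proximal, 33.7% distal and 31.7% in both when the coding start had to be covered, an alternative chosen after seeing the data. In windows from 500 bases before to 100 after the start, CCAAT was in 41.7% of H4 promoters (25% in the shorter window) and AACACA in 16.7% of H2A (11.1%) and 20% of H3 promoters (10%), with 50% of H4 promoters (33.3%). A tighter distance limit can only lower the count of shared peaks, and a tighter overlap can only raise the count called in 1 end alone. The windows and coding starts change by construction what is counted. The cause of the other changes was not tested.

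No paired analysis was possible because each femur end has 1 peak list that combines its replicates, and no replicate was left out. Peak lists without heights limit every comparison to presence, position and width.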
